A study of Drosophila melanogaster with 6 samples.

Results

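Peptidoglycan recognition proteins (PGRPs) are the fly's main sensors of bacterial cell wall, and 10 of their genes were followed here in the Malpighian tubules, the renal organs of Drosophila melanogaster. The 10 genes were chosen by name, with earlier results of these data known. They were found by FlyBase identifier among the 17611 genes of the count table. They comprise 5 receptors or receptor partners (PGRP-LC, PGRP-LE, PGRP-SA, PGRP-SD and PGRP-LA), 4 amidases (PGRP-LB, PGRP-SB1, PGRP-SC1a and PGRP-SC2) and 1 inhibitor (PGRP-LF). The family's other 3 genes in the table, PGRP-LD, PGRP-SB2 and PGRP-SC1b, are described beside them. Tubules came from tumour-bearing flies, whose genotype was esg-GAL4, UAS-GFP, tub-GAL80TS with UAS-yki3SA, and from control flies with the same driver chromosomes but no yki3SA, with 3 libraries in each group. Both groups were virgin flies. They spent 6 to 8 days at 18 °C and the following 8 days at 29 °C, where the temperature-sensitive GAL80 no longer holds GAL4 in check. There yki3SA, an activated Yorkie growth regulator, is made in esg-positive cells. RNA was taken from 80 tubules of each genotype, and nothing in the labels says that libraries of 1 group had separate fly cultures as their source. The p-values thus cover the spread among these libraries alone, and that spread may be technical. The driver is known to be active in renal stem cells of the tubule as well as in intestinal progenitors, so an effect of yki3SA within the tubule and an effect of the gut tumour cannot be told apart.

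In flies, peptidoglycan starts immune signalling through a pair of pathways. The Imd pathway responds to the DAP-type peptidoglycan of most Gram-negative bacteria through PGRP-LC at the cell surface and PGRP-LE inside the cell, and it ends in the NF-kappaB factor Relish and genes for antibacterial peptides such as diptericins and attacins. The Toll pathway responds to Lys-type peptidoglycan through PGRP-SA in the haemolymph. Amidase PGRPs cut peptidoglycan and so limit signalling, and PGRP-LF holds PGRP-LC back. The tubule is known to mount its own Imd response.

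Libraries held 34640437 to 49338340 counts, and levels are given as CPM, counts scaled to the library total after TMM normalisation. A library without a count could hold up to 3 counts by counting error alone, 0.0517 to 0.0911 CPM at this depth. The yki transcript was at 63.5 to 79.6 CPM in control and 76.9 to 90.8 CPM in tumour libraries (adjusted p = 0.331), so it gave no check of the genotype labels. Markers of the tubule's own cells were present in both groups, all 10 of the principal cell list (summed level 13680 to 17170 CPM in control, 8001 to 9584 CPM in tumour) and all 6 of the stellate cell list (1241 to 1429 and 954 to 1092 CPM). Transcripts of 30 midgut enzyme genes summed to 527 to 1413 CPM in control and 32.2 to 169.6 CPM in tumour libraries, and those of 11 fat body genes to 2478 to 5825 and 184 to 389.8 CPM. Differences between tumour and control were tested with edgeR's quasi-likelihood test over 9789 genes at an adjusted p of 0.05. By this test 4 of the 10 principal cell markers and 2 of the 6 stellate cell markers fell, and 0 rose. Without 1 library 4 to 5 and 0 to 2 fell. Over all genes tested 13.0% fell. In bulk RNA, fewer cells of a type and less RNA per cell cannot be told apart, and this holds for each result that follows.

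Of the 10 genes, 6 rose in tumour tubules: the receptors PGRP-SD, PGRP-SA and PGRP-LE, the amidases PGRP-SB1 and PGRP-LB, and the inhibitor PGRP-LF. The receptors PGRP-LC and PGRP-LA and the amidase PGRP-SC2 did not pass the test, and the amidase PGRP-SC1a was too low to be tested. Over all genes tested 27.8% passed, of which 14.8% rose and 13.0% fell (as shares of all tested), 1453 and 1273 genes; with library totals alone as the scaling these numbers were 3079 and 830. Among the members 0 fell in the edgeR test, 0 were lower at an unadjusted p under 0.05, and 0 fell by DESeq2 or limma-voom. These counts cover the 9 members tested. Outside the 10, the family gene PGRP-SC1b fell (adjusted p = 0.00903, edgeR), as did its sum with PGRP-SC1a (adjusted p = 0.0228, edgeR). In the 6 genes that rose, each tumour library lay above each control library, and in PGRP-SC1a each lay below. Such a gap was found in 46.9% of all genes tested, upward in 26.8% and downward in 20.1%. The plot of CPM by library shows these levels.

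**Figure D1:**
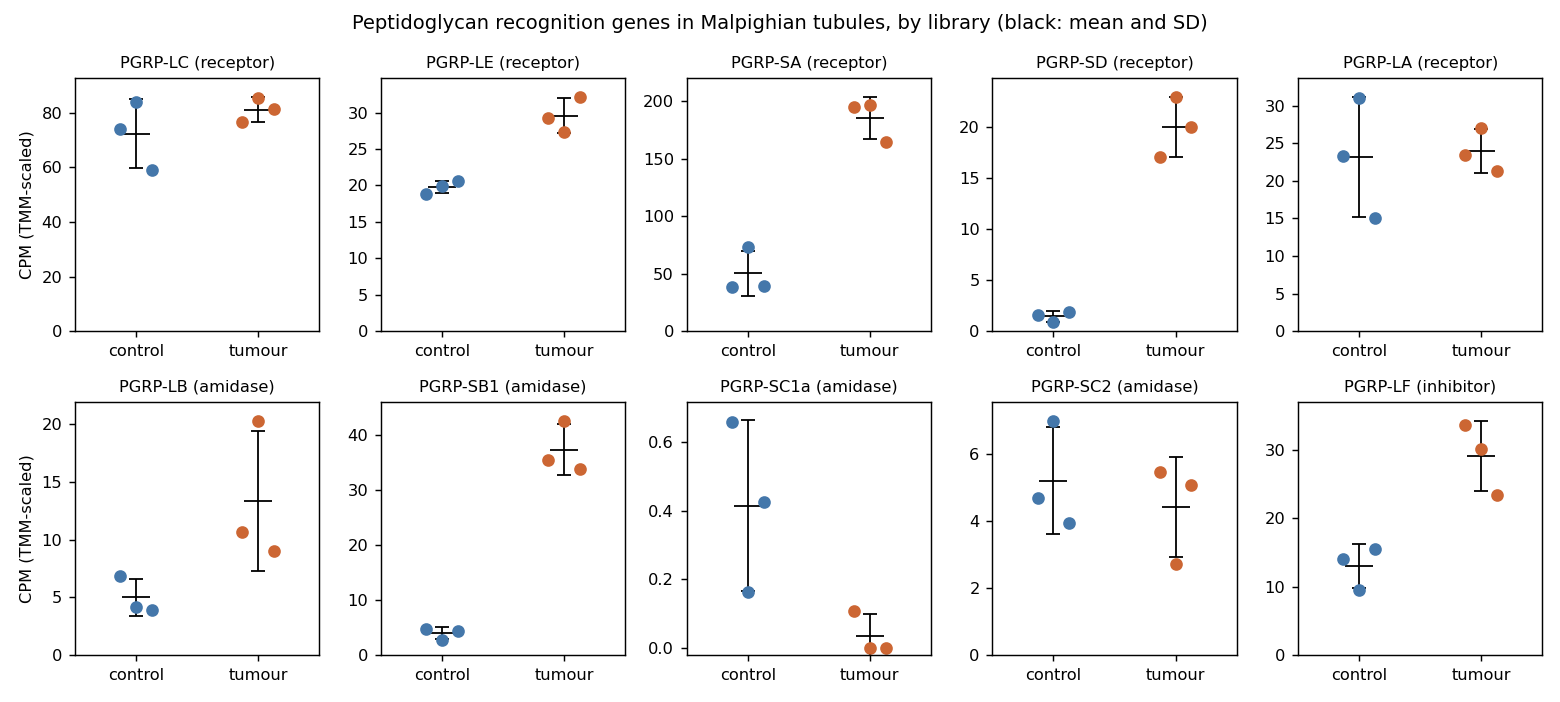
Level of each of the 10 genes in CPM (vertical axis, linear, a scale for each gene) in the 3 control (blue) and 3 tumour (orange) libraries, with the mean and SD in black. The groups are apart for PGRP-SD, PGRP-SA, PGRP-LE, PGRP-SB1, PGRP-LB and PGRP-LF, overlap for PGRP-LC, PGRP-LA and PGRP-SC2, and for PGRP-SC1a lie below 0.66 CPM throughout.

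Among the receptors, the secreted PGRP-SD and PGRP-SA had larger fold changes than PGRP-LE, PGRP-LC and PGRP-LA, and the differences between these fold changes were not tested. PGRP-SD (FBgn0035806; chromosome 3L, 7651180 to 7651900 in BDGP6) encodes a secreted protein that assists PGRP-SA and is also known to enhance Imd signalling. It was at 1.60, 0.893 and 1.91 CPM in control replicates 1 to 3 and at 17.0, 22.9 and 19.9 CPM in tumour replicates 1 to 3. All tumour libraries were far above all control libraries, and the lowest was control replicate 2. The rise was 13.6-fold (log2 fold change 3.77 ± 0.30 SE, adjusted p = 1.63e-04), the 46th highest log2 fold change among the 9789 genes. The gene lies within the span of CG32373, on the same strand but with no shared exon sequence, and CG32373 itself was at 0.812 ± 0.314 and 1.43 ± 0.662 CPM (SD, n = 3; adjusted p = 0.305). At 1 end PGRP-SD shares 35 bases of exon with CG7492 on the other strand, 4.9% of its exon length. CG7492 rose from 33.4 ± 3.42 to 48.5 ± 5.28 CPM (SD, n = 3; adjusted p = 0.0195, edgeR).

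PGRP-SA (FBgn0030310; chromosome X, 11561643 to 11562779) encodes the circulating receptor that, with GNBP1, starts the Toll cascade on Lys-type peptidoglycan. Its level was 38.5, 73.0 and 39.1 CPM in the control libraries and 194.6, 196.8 and 164.1 CPM in the tumour libraries. Control replicate 2 was high within its group and still below each tumour library. The rise was 3.69-fold (log2 fold change 1.88 ± 0.26, adjusted p = 0.00235).

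PGRP-LE (FBgn0030695; chromosome X, 15801153 to 15803880), the intracellular sensor of peptidoglycan fragments, showed the smallest of the 6 rises. It was at 18.9, 19.9 and 20.6 CPM in the controls, against 29.2, 27.3 and 32.1 CPM with tumours, a narrow spread in both groups. The log2 fold change was 0.58 ± 0.12, or 1.49-fold (adjusted p = 0.00984).

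PGRP-LC (FBgn0035976; chromosome 3L, 9338810 to 9348336), the transmembrane receptor of the Imd pathway, was at 73.8, 83.9 and 58.8 CPM in the controls, against 76.4, 85.4 and 81.4 CPM with tumours. The groups overlapped and the difference did not pass (log2 fold change 0.17 ± 0.14, adjusted p = 0.421). With library totals alone, a scaling that moved the log2 fold change of all genes up by a median of 0.29, the value for PGRP-LC was 0.45 (adjusted p = 0.05, not under the threshold). The annotation gives this gene 10 transcripts with 8 different coding lengths, between 987 and 1560 bases. Its isoforms are known to differ in the outer, peptidoglycan-binding part, and counts per gene do not separate them.

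PGRP-LA (FBgn0035975; chromosome 3L, 9334332 to 9338336), whose product is thought not to bind peptidoglycan and is known as a positive regulator of Imd signalling in barrier epithelia, was at 23.4, 31.0 and 15.0 CPM in the controls, against 23.5, 27.1 and 21.3 CPM with tumours. The tumour libraries lay inside the range of the control libraries (log2 fold change 0.05 ± 0.25, adjusted p = 0.907). PGRP-LA ends 473 bases before PGRP-LC begins, on the same strand. In both genes control replicate 2 was the highest and control replicate 3 the lowest of the control libraries.

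Of the amidases, PGRP-SB1 and PGRP-LB rose and the genes of the PGRP-SC cluster did not. PGRP-SB1 (FBgn0043578; chromosome 3L, 16727299 to 16727989), a secreted amidase with known antibacterial activity, was at 4.66, 2.79 and 4.43 CPM in the controls, against 35.5, 42.5 and 33.9 CPM with tumours. The groups were far apart, and control replicate 2 was again the lowest. The rise was 9.41-fold (log2 fold change 3.23 ± 0.22, adjusted p = 9.00e-05), with the smallest adjusted p of the family. The neighbouring family gene PGRP-SB2, which lies on the other strand with 10 bases between them, had 0 counts in each control library and 0, 2 and 1 counts in the tumour libraries.

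PGRP-LB (FBgn0037906; chromosome 3R, 11452849 to 11460552) encodes the amidase best known for damping the Imd response to gut bacteria. Its level was 6.86, 4.17 and 3.92 CPM in control and 10.7, 20.3 and 9.03 CPM in tumour libraries. Tumour replicate 2 was high, and the tumour library nearest to control was replicate 3. The rise was 2.67-fold (log2 fold change 1.42 ± 0.36, adjusted p = 0.0245). Leaving out control replicate 2 (adjusted p = 0.0741), control replicate 3 (0.0856), tumour replicate 1 (0.0507) or tumour replicate 2 (0.0649) ended the call, against 0.00192 to 0.0856 over all alternatives, and without tumour replicate 2 the log2 fold change was 0.99. Among the tumour libraries, replicate 2 also had the highest sum of midgut enzyme transcripts (169.6 CPM, against 65.8 and 32.2 CPM) and of fat body transcripts (389.8 CPM, against 195.4 and 184 CPM). In control libraries those sums were higher and PGRP-LB was lower. The part of these tissues in the level of PGRP-LB was not tested, and across groups it cannot be told apart from the group difference. It lies wholly within the span of CG17230 on the other strand, with no shared exon sequence, and CG17230 had 4.01 ± 0.736 CPM without and 4.18 ± 0.501 CPM with tumours (SD, n = 3; adjusted p = 0.89). The gene has 6 annotated transcripts with 3 coding lengths of 645 to 765 bases. Its products are known to include secreted and intracellular forms, which the counts do not separate.

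The PGRP-SC genes lie side by side on chromosome 2R (PGRP-SC1a at 8709733 to 8710320, PGRP-SC1b at 8713446 to 8715094 and PGRP-SC2 at 8716950 to 8717695) and encode amidases known mainly from the gut. PGRP-SC2 (FBgn0043575) was at 4.68, 7.01 and 3.95 CPM in the controls, against 5.47, 2.72 and 5.09 CPM with tumours. The groups overlapped, with the highest value in control replicate 2 and the lowest in tumour replicate 2 (log2 fold change -0.24 ± 0.35, adjusted p = 0.655). The sign turned, to 0.05, with library totals alone, and to 0.03 and 0.02 without control replicate 2 or tumour replicate 2.

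PGRP-SC1a (FBgn0043576) had 26, 6 and 14 counts in the control libraries and 4, 0 and 0 in the tumour libraries, which is 0.658, 0.162 and 0.425 CPM against 0.109 CPM and 2 libraries with no count. Each tumour library was below each control library, but the counts were too few for the filter on low values. In all, control libraries held 46 counts and tumour libraries 4, a ratio per effective depth of 14.6 (95% exact interval 5.33 to 55.8, counting error only). Without the filter the log2 fold change was -3.55 ± 1.36 and did not pass (adjusted p = 0.0919). Among the fits without 1 library, PGRP-SC1a entered the test in 4, and fell only without tumour replicate 1, the tumour library that held all 4 counts (adjusted p = 0.0364, against 0.0364 to 0.168 where it was tested by itself).

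PGRP-SC1b, which is not among the 10 genes and is a close copy of PGRP-SC1a, had 25, 12 and 17 counts in control and 1, 1 and 0 counts in tumour libraries. Control exceeded tumour by a ratio of 34.3 (95% exact interval 9.04 to 290.2, counting error only), and the gene fell (adjusted p = 0.00903, edgeR). How reads were split between the copies is uncertain, so the copies were also summed. The sum was 1.29, 0.487 and 0.941 CPM in control and 0.136, 0.0227 and 0 CPM in tumour libraries, and it fell (log2 fold change -4.17 ± 1.06, adjusted p = 0.0228, edgeR).

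Transcripts of midgut enzymes were lower in tumour libraries, like those of the PGRP-SC1 genes. Of the 30 midgut enzyme genes 28 were tested, of which 19 fell and 1 rose. Both deltaTry and zetaTry were at 0 in all tumour libraries, with 2, 0 and 1 and with 168, 91 and 94 counts in control libraries. The few control counts of deltaTry make its absence uninformative. The gene that rose, Jon66Cii, had 0 counts in each control library and 32, 34 and 28 counts in the tumour libraries. The midgut sum was highest in control replicate 1 (1413 CPM), lower in control replicate 3 (842.7 CPM) and lowest of the controls in control replicate 2 (527 CPM). PGRP-SC1a and PGRP-SC1b had the same order. In tumour libraries the orders differed, with the highest midgut sum in replicate 2 (169.6 CPM, against 65.8 CPM in replicate 1) and all 4 counts of PGRP-SC1a in replicate 1. Germline and eggshell transcripts, summed over 14 genes, had the same order in control replicates 1, 3 and 2 (288.8, 142.9 and 123.2 CPM) and were at 5.46 to 13.4 CPM with tumours. PGRP-SC2 had another order, with its highest level in control replicate 2. The part of RNA from these tissues in the levels was not tested. The plot of the PGRP-SC cluster beside the midgut sum shows each library.

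**Figure D2:**
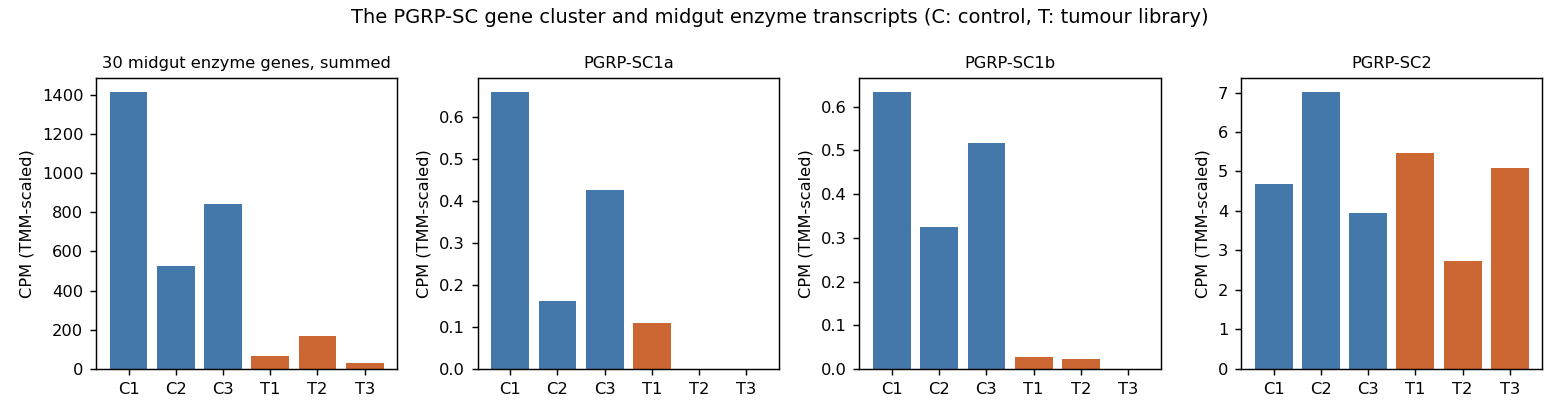
Bars give CPM (linear axes from 0) in each control (C, blue) and tumour (T, orange) library for the sum of 30 midgut enzyme genes and for PGRP-SC1a, PGRP-SC1b and PGRP-SC2. The midgut sum and the PGRP-SC1 genes are low in all tumour libraries, at up to 169.6 CPM and up to 0.109 CPM, while PGRP-SC2 overlaps between groups.

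The inhibitor PGRP-LF (FBgn0035977; chromosome 3L, 9349609 to 9351489) encodes a membrane protein that pairs with PGRP-LC without binding peptidoglycan. It was at 14.1, 9.47 and 15.5 CPM in the controls, against 33.6, 30.2 and 23.5 CPM with tumours. The groups did not overlap, with tumour replicate 3 nearest to control. The rise was 2.23-fold (log2 fold change 1.16 ± 0.22, adjusted p = 0.00702). PGRP-LF follows PGRP-LC after 1272 bases on the same strand, so PGRP-LA, PGRP-LC and PGRP-LF form a row of neighbours of which PGRP-LF alone passed the test. The difference between these neighbours was not tested. On the other strand 602 bases, 44.4% of the exon length of PGRP-LF, overlap exons of UGP, which encodes UDP-glucose pyrophosphorylase. UGP was at 1013 ± 209 CPM in control and fell to 308 ± 59.6 CPM in tumour libraries (SD, n = 3; adjusted p = 9.25e-04, edgeR), the opposite direction to PGRP-LF. The strand setting of the counting is not given, so reads of these genes in the shared stretch cannot be told apart.

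The log2 fold changes ran from 3.77 for PGRP-SD to -0.24 for PGRP-SC2 among the 9 members tested. The ranks from the highest among 9789 genes were 46 for PGRP-SD, 80 for PGRP-SB1, 253 for PGRP-SA, 427 for PGRP-LB, 589 for PGRP-LF and 1765 for PGRP-LE. PGRP-LC, PGRP-LA and PGRP-SC2 ranked 4313, 5100 and 6695. PGRP-LD, the remaining family gene, was at 3.13 ± 0.374 CPM in controls, against 2.81 ± 0.153 CPM with tumours (SD, n = 3; adjusted p = 0.712), and 90.0% of its exon length overlaps Pmi, so its counts are uncertain.

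**Figure D3:**
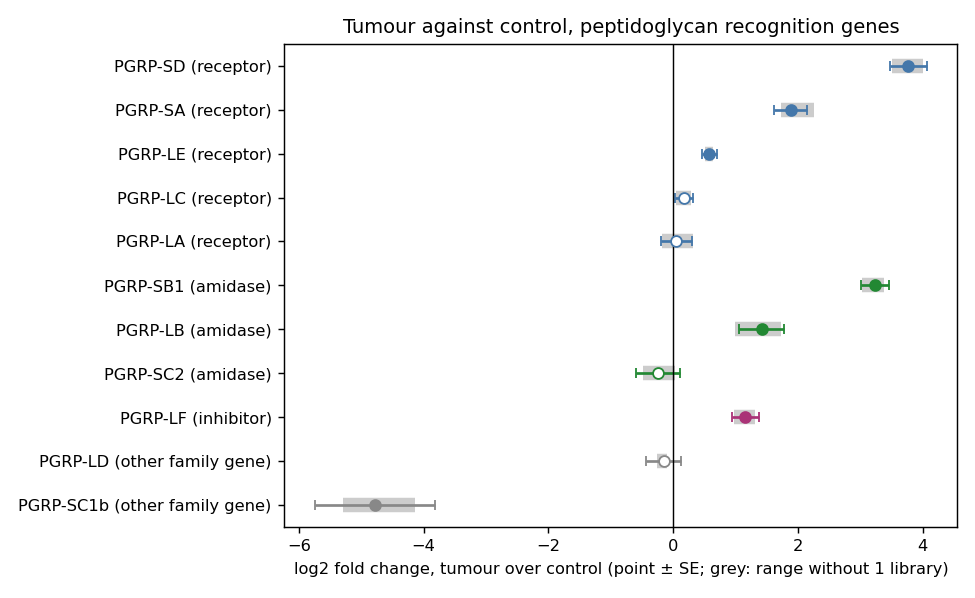
Points give log2 fold changes, tumour over control, with SE for the 9 members tested and for PGRP-LD and PGRP-SC1b, filled where the adjusted p was under 0.05, and grey bars give the range over the 6 fits without 1 library. PGRP-SD and PGRP-SB1 stand above 3, and PGRP-LC, PGRP-LA and PGRP-SC2 lie near 0.

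Levels of different genes were compared as CPM per kilobase of annotated exon, a scale that understates genes with many alternative exons such as PGRP-LC. In control tubules PGRP-SA had the highest level per length (37.8 to 71.8 CPM per kb), then PGRP-LC (15.7 to 22.4), and these were apart from each other and from the genes below. PGRP-LA, PGRP-LF, PGRP-LE, PGRP-SC2 and PGRP-SB1 followed with means from 11.0 to 6.36 CPM per kb, and each overlapped its neighbour in this order. PGRP-LB (mean 2.81 CPM per kb) and PGRP-SD (2.04 CPM per kb) overlapped each other, and PGRP-SC1a was lowest (0.706 CPM per kb).

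In tumour tubules the order differed. PGRP-SA was again highest (161.2 to 193.3 CPM per kb), followed by PGRP-SB1 (54.4 to 68.3) and PGRP-SD (23.6 to 31.7). PGRP-SA and PGRP-SB1 were apart from each other and from the rest, and PGRP-SD was apart from PGRP-LC, next in the order, but overlapped PGRP-LF, which exceeded it in tumour replicate 1. PGRP-SD by its mean thus stood at rank 3 of 10 by its level per length, against rank 9 in control, and PGRP-SB1 at rank 2 against rank 7. PGRP-LC (20.4 to 22.8 CPM per kb) and PGRP-LF (17.3 to 24.8) overlapped, whereas in control PGRP-LF lay wholly below PGRP-LC. PGRP-LE, PGRP-LA, PGRP-LB and PGRP-SC2 followed, with overlaps between PGRP-LA and PGRP-LB and between PGRP-LB and PGRP-SC2.

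**Figure D4:**
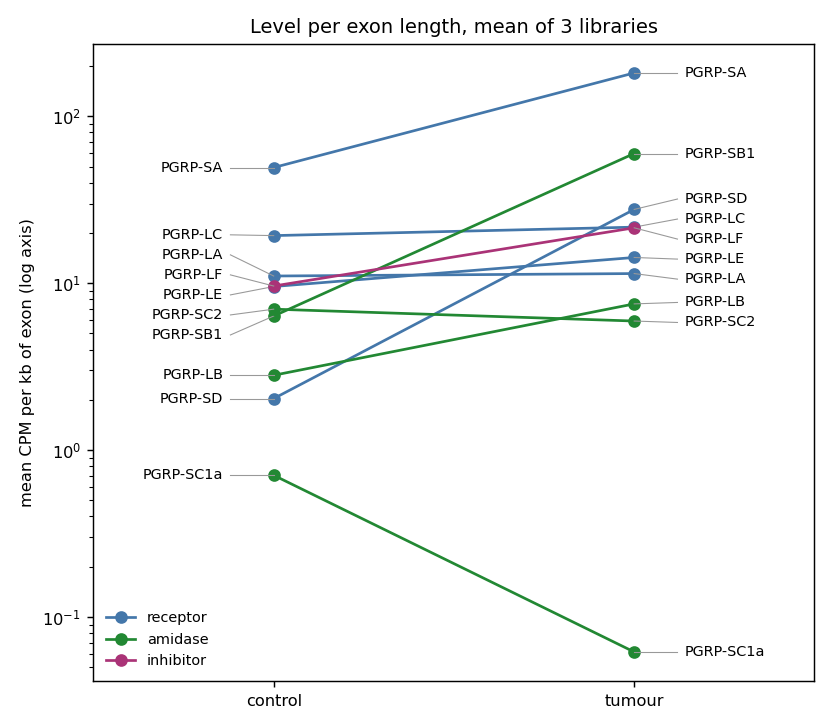
Mean CPM per kilobase of exon over 3 libraries (log axis) for each of the 10 genes in control and tumour tubules, coloured by role. PGRP-SD and PGRP-SB1 cross most of the other genes, from 2.04 to 27.7 and from 6.36 to 59.9 CPM per kb, and the tumour mean of PGRP-SC1a rests on 4 counts in 1 library.

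The genes whose level followed PGRP-SB1, the member with the smallest adjusted p, most closely over the 6 libraries were pirk (Pearson's r of log2 CPM 0.9991), bor (0.9973) and CG8726 (0.9969), among 7658 genes with a mean log2 CPM of at least 1. These values rest mostly on the difference between the groups and are a description. pirk encodes a negative regulator that acts on PGRP-LC and PGRP-LE. It was at 12.4, 8.28 and 11.0 CPM in the controls, against 55.0, 57.7 and 51.1 CPM with tumours. Like PGRP-SB1, pirk, bor and CG8726 were each lowest in control replicate 2 and highest in tumour replicate 2. They were picked for a high r with PGRP-SB1, so the shared order adds nothing to that r.

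The Imd pathway around the receptors rose in part, by small amounts within the cascade and by large ones among its peptides. The counts of each Imd list stand beside the 14.8% of all genes tested that rose and the 13.0% that fell. Of 13 genes of Imd signal transduction, all tested, 5 rose and 0 fell (6 higher and 0 lower at an unadjusted p under 0.05, and 0 lower by DESeq2 or limma-voom), and the median log2 fold change was 0.14 against 0.08 over all genes tested. key, which encodes the IKK-gamma subunit, was at 47.4, 48.4 and 45.6 CPM in the controls, against 79.3, 72.9 and 65.2 CPM with tumours, a rise of 1.54-fold (adjusted p = 0.00603). The ubiquitin ligase gene Diap2 rose 1.43-fold (adjusted p = 0.0159) and the ubiquitin-conjugating enzyme gene ben 1.36-fold (adjusted p = 0.0195). The number of these genes that rose was 3 without control replicate 1 or tumour replicate 3, 2 without control replicate 3 or tumour replicate 1, 1 at a threshold of 0.01, and 8 with library totals alone.

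Of 9 genes listed here as negative regulators of Imd signalling, all tested, 4 rose and 0 fell, with a median log2 fold change of 0.38. At an unadjusted p under 0.05 in the edgeR test 5 were higher and 0 lower, and 0 were lower by DESeq2 or limma-voom. pirk rose 5.18-fold (adjusted p = 9.72e-05). Charon, which encodes a nuclear regulator of Relish, rose from 24.7 ± 0.763 to 53.5 ± 9.08 CPM (SD, n = 3; adjusted p = 0.00117, edgeR), and casp, the caspar gene, rose 1.30-fold (adjusted p = 0.0413). The number that rose was 2 without control replicate 2, control replicate 3, tumour replicate 1 or tumour replicate 2, 2 with RLE scaling, with no filter or at a threshold of 0.01, and 7 with library totals alone.

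Of 12 genes for Imd-dependent antimicrobial peptides 11 were tested, of which 9 rose and 0 fell (9 higher and 0 lower at an unadjusted p under 0.05, and 0 lower by DESeq2 or limma-voom), and the median log2 fold change was 3.57. The attacin gene AttD was at 0.329, 0.568 and 0.304 CPM in the controls, against 76.9, 78.4 and 88.9 CPM with tumours (adjusted p = 6.74e-06), and the diptericin gene DptA rose 101.8-fold (adjusted p = 1.50e-04). AttB rose 10.7-fold (adjusted p = 2.38e-04). Its sequence is close to that of AttA, so how reads were split between them is uncertain.

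In the Toll pathway, which PGRP-SA and PGRP-SD serve in the haemolymph, the lists are given one by one, beside the 27.8% of all genes that passed. Of 11 genes for Toll recognition and its proteases, all tested, 2 fell and 0 rose (7 lower and 0 higher at an unadjusted p under 0.05, and 0 higher by DESeq2 or limma-voom), and the median log2 fold change was -0.85. GNBP1, which encodes the partner of PGRP-SA, was at 27.5, 27.7 and 22.5 CPM in the controls, against 7.29, 9.32 and 6.71 CPM with tumours. The groups were apart in the direction opposite to PGRP-SA, with a fall of 3.33-fold (adjusted p = 4.27e-04). GNBP3, a sensor of fungal glucans, passed narrowly (2.52-fold lower, adjusted p = 0.0498), and the protease gene psh did not pass (3.46 ± 1.64 and 1.13 ± 0.653 CPM, SD, n = 3; adjusted p = 0.0578, edgeR). The number that fell was 1 without any 1 of control replicates 1 and 3 or tumour replicates 1 and 3, 5 without tumour replicate 2, 4 by DESeq2, 3 by limma-voom, 3 with no filter or at 5 CPM in 3 libraries, and 1 with library totals alone, a replicate block or a threshold of 0.01.

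Of 7 genes for the Toll receptor and its signal transduction, 2 rose and 1 fell, with a median of 0.17. The adaptor gene Myd88 rose from 117 ± 3.56 to 199 ± 12.8 CPM (SD, n = 3; adjusted p = 0.00184, edgeR), the adaptor gene tub rose 1.60-fold (adjusted p = 0.0328), and Dif, which encodes an NF-kappaB factor, fell 1.38-fold (adjusted p = 0.0474). Only 1 rose without any 1 of control replicates 1 and 3 or tumour replicates 1 and 3, and 0 fell in the edgeR fits that left out a library other than tumour replicate 3 and in those with no filter or library totals alone (1 lower at an unadjusted p under 0.05 with all libraries, and 1 by DESeq2 and by limma-voom).

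Of 17 genes for Toll-dependent peptides 13 were tested, of which 1 fell and 0 rose (3 lower and 0 higher at an unadjusted p under 0.05, and 0 higher by DESeq2 or limma-voom), with a median of -0.60. The gene that fell was the bomanin BomBc2, from 16.3 ± 3.2 to 2.57 ± 0.717 CPM (SD, n = 3; adjusted p = 4.72e-04, edgeR), while BomS2 and BomT2 did not pass (adjusted p = 0.104 and 0.114). The number that fell was 2 without control replicate 1, by DESeq2 and with a replicate block. The plot of log2 fold changes by list sets these genes beside the receptors, amidases and inhibitor.

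**Figure D5:**
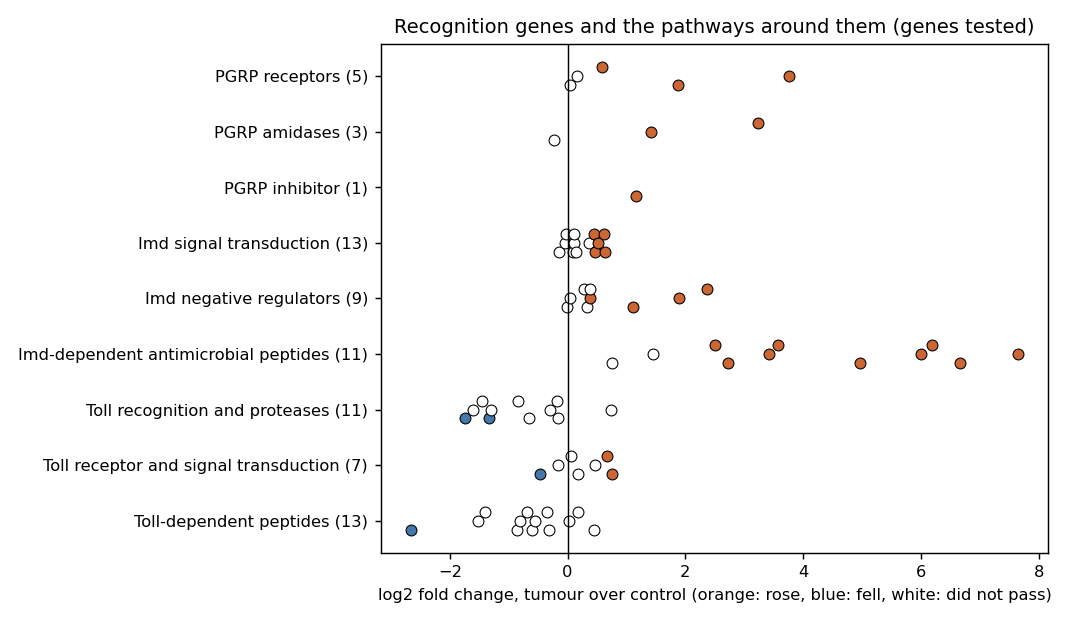
Each point is the log2 fold change (tumour over control) in 1 tested gene, with lists in rows (number tested in brackets), orange where the gene rose, blue where it fell and white where it did not pass. Antimicrobial peptide genes of the Imd list reach furthest right, with AttD at 7.65, and genes of Toll recognition lie mostly below 0.

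Some markers of other cells that the dissection or the genotype could add differed between the groups too. Over all genes tested 14.8% rose and 13.0% fell. Fat body transcripts, from a tissue known to make PGRP-SA and PGRP-SD, fell for 4 of 10 tested genes and rose for 0 in the edgeR test (1 higher at an unadjusted p under 0.05), and Yp3 was the most abundant of them. Their sum was lower in each tumour library than in each control library, and Yp1, Yp2 and Yp3 made up most of it. The sum thus mainly gives the direction of these genes. The median log2 fold change of the 10 tested genes was -2.75. Lsp1gamma was higher in each tumour library than in each control library but did not pass (adjusted p = 0.0505, edgeR). Lsp1alpha, Fbp1 and Fbp2 had higher tumour means and did not pass. The part of fat body RNA in the levels of PGRP-SA and PGRP-SD was not tested. Haemocyte transcripts summed to 223.9 to 239.6 CPM in control and 249.8 to 277.2 CPM in tumour libraries over 12 genes, of which 8 were tested, 1 rose and 2 fell. The gene that rose was crq, which is also the most abundant of the list and made up most of that sum. It was at 170.1, 199.5 and 162.7 CPM in control and 225.2, 257.1 and 233.6 CPM in tumour libraries. The direction of the sum is thus that of crq, and the median log2 fold change of the 8 tested genes was -0.63. Progenitor transcripts rose for 2 of 3 tested genes, with a sum over 4 genes of 11.1 to 12.3 CPM in control and 27.7 to 42.1 CPM in tumour libraries. The most abundant was esg in control and zfh2 in tumour libraries. The tested gene that did not rise was esg, at 5.78 ± 0.299 CPM in controls, against 3.75 ± 2.62 CPM with tumours (SD, n = 3; adjusted p = 0.339), and 1 gene of the list was lower without tumour replicate 2. Enteroendocrine transcripts, summed over 9 genes, went from 27.8 to 30.2 CPM in control to 83.8 to 115.7 CPM in tumour libraries. Orcokinin made up most of the tumour sum, at 14.9, 15.0 and 10.9 CPM in control and 107.9, 100.8 and 77.0 CPM in tumour libraries. Of 6 tested genes 2 were higher and 1 lower, and their median log2 fold change was -0.23. No marker of the fat body, progenitor or enteroendocrine lists was at 0 in all libraries of a group. Of 14 tested germline and eggshell genes 9 fell (2 to 7 without 1 library). In the muscle, tracheal and nephrocyte lists 1 gene each fell, of 10, 6 and 4 tested. Without 1 library these numbers were 0 to 4, 0 to 2 and 0 to 1. Without 1 library, 0 or 1 haemocyte gene, 0 or 1 fat body gene and 1 or 2 enteroendocrine genes rose. The part of these cells in the rise of the 6 recognition genes was not tested.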

How the data were processed

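The authors deposited 1 table of raw read counts per gene with 1 column for each of 6 libraries, 3 per group. Per the labels, samples passed an RNA integrity of 7, poly-A RNA was enriched, and libraries were made with the Illumina TruSeq kit. TopHat, Cufflinks and HTSeq are listed, without a role, in the submitters' processing notes. Genome build, annotation release and strand setting: not given in the sources used here. Of 17611 identifiers 17552 had a symbol. Coordinates, exon lengths and overlaps came from the Ensembl BDGP6 annotation by identifier and do not describe the build that was counted on.

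Genes were filtered with filterByExpr (minimum count 10, minimum total 15), which left 9789 and 9 of the 10 members. Tumour was compared with control in edgeR 4.0.16 under R 4.3.3 (TMM, robust quasi-likelihood test, two-sided, Benjamini-Hochberg over all genes, threshold 0.05). The SE is the size of the log2 fold change divided by the square root of F. CPM are TMM-scaled, log2 CPM used a prior count of 2, and SDs are over 3 libraries. Depth is 34640437 to 49338340 counts per library. The 2 most alike libraries of a group still differed well beyond sampling noise (chi-square per degree of freedom 66.2). The fit was tested on simulated data.

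The members and gene lists were chosen with earlier results of these data known. Of 201 list entries 3 were left out. The symbols Dl and nos had no entry in the gene names used, so their counts were not looked for, and BaraA2 was not in the count table. Besides the members and the 3 other family genes, the text names yki, the 3 genes of each pathway list with the smallest adjusted p, the 3 genes most like the leading member, genes that overlap a member, and the most abundant gene of a marker list. The markers deltaTry, zetaTry, Jon66Cii, Yp1, Yp2, Lsp1alpha, Lsp1gamma, Fbp1 and Fbp2 were named after their values were seen. Alternatives were RLE, upper-quartile and library-total scaling, no filter, 5 CPM in 3 libraries, DESeq2 1.42.0, limma-voom (limma 3.58.1), a replicate block, a threshold of 0.01 and leaving out each library. Summing PGRP-SC1a with PGRP-SC1b, and all alternatives for the lists, were added after the data were seen. No sequence is shown.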

Additional observations from a re-analysis of the deposited data

How the results depend on the processing

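The number of members that rose was 6 in each alternative other than a threshold of 0.01 (5) and the fits without 1 library (5 to 6). PGRP-LB was the member that lost its call in these. PGRP-SD, PGRP-SB1, PGRP-SA, PGRP-LE and PGRP-LF passed in each of the 16 alternatives, with adjusted p up to 0.00188, 0.00136, 0.0138, 0.0371 and 0.0354. The number of members that fell was 0 to 1 without 1 library and 1 with PGRP-SC1a and PGRP-SC1b summed. Over all genes, 3079 rose and 830 fell with library totals alone, 598 and 599 at a threshold of 0.01, and 865 to 1223 and 882 to 1141 without 1 library. The log2 fold change of PGRP-LA, which did not pass in any alternative, was -0.015 with RLE scaling or DESeq2, -0.005 with upper-quartile scaling and -0.183 to 0.317 without 1 library. That of PGRP-SC2 was 0.046 with library totals alone and -0.479 to 0.034 without 1 library, and that of PGRP-LD was 0.134 with library totals alone; the cause was not tested. Replicate numbers did not pair the libraries (correlations of same-numbered deviations 0.082, -0.083 and 0.058, and not every library correlated best with its own number). With a replicate block 6 members rose and 0 fell, and over all genes 1345 rose and 1193 fell. Depth limits PGRP-SC1a, PGRP-SC1b and PGRP-SB2, which had few counts or 0 counts in tumour or control libraries.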
